A study of Mus musculus with 8 samples.

Results

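The immediate early genes described here are the 10 genes Fos, Fosb, Fosl1, Jun, Junb, Egr1, Egr2, Ier2, Dusp1 and Klf6, taken by symbol from the 54232 genes of the count tables. RNA was sequenced from E14 mouse embryonic stem cells (strain given in the labels as 12910la) in 8 libraries, 2 in each of 4 groups. All groups were grown in 15% serum with 10 ng/ml of the cytokine LIF. The libraries labelled Ssrp1 knockout came from cells in which Cas9 and a guide RNA had targeted Ssrp1, a subunit of the histone chaperone FACT, and the Ssrp1 controls carry the genotype label control. The Usp7 knockdown libraries came from cells given an shRNA against Usp7, a deubiquitinase, and the Usp7 controls again carry only the label control. The Usp7 protocol used 1000 ng of plasmid, followed after 24 h by 1 ug/ml puromycin for 3 days with new medium every 24 h. The labels say neither whether the knockout cells were 1 clone or several, nor which plasmid and selection the Usp7 controls received, nor how long before lysis the medium was last changed.

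Immediate early genes are switched on within minutes of a stimulus such as serum or a growth factor, without new protein synthesis. The signal usually reaches them through the kinase ERK and the transcription factors SRF, its ternary complex partners and CREB, and their mRNAs are short-lived. In mouse embryonic stem cells the main source of ERK activity is FGF4, which the cells make themselves and which prepares them to differentiate. Fos and Jun family proteins pair to form the transcription factor AP-1, Egr proteins are zinc finger transcription factors, and Dusp1 encodes a phosphatase that switches MAP kinases off.

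Egr1 fell in the Usp7 knockdown (edgeR adjusted p = 0.042), to between 20.8 and 53.0 CPM (counts scaled to the size of each library), against 94.7 to 117.5 CPM in Usp7 controls. It was the only one of the 10 genes called in either experiment. The libraries labelled Ssrp1 knockout gave 51.9 and 4.77 CPM of Egr1, on opposite sides of the Ssrp1 controls at 19.9 and 17.8 CPM. No other member was called, and several moved with single libraries.

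The bases just before the start sites are shown for 4 members, Fos, Junb and Dusp1 as genes lower in both Usp7 knockdown libraries and Jun as a gene higher in both. Each window holds the 250 bases before the RefSeq start (GRCm38.p6), 5′ to 3′ on the gene's strand. Capitals mark matches to the motifs described after them. Fos lies at chr12:85473640-85473889 (plus strand), Junb at chr8:84978749-84978998 (minus), Dusp1 at chr17:26508473-26508722 (minus) and Jun at chr4:95052223-95052472 (minus).
Fos: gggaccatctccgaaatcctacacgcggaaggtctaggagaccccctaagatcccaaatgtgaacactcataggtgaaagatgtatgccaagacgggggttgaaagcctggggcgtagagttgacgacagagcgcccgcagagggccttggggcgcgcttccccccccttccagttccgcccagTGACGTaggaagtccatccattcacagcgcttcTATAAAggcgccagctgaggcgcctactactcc
Junb: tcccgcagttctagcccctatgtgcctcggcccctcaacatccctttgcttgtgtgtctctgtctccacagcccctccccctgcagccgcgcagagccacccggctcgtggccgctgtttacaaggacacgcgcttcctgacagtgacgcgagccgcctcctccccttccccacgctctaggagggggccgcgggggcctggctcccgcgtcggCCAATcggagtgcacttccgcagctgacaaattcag
Dusp1: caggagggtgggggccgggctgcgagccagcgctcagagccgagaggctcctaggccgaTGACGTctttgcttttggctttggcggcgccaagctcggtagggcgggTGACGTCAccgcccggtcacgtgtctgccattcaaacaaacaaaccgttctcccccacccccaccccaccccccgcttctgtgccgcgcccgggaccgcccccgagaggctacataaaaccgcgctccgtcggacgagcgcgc
Jun: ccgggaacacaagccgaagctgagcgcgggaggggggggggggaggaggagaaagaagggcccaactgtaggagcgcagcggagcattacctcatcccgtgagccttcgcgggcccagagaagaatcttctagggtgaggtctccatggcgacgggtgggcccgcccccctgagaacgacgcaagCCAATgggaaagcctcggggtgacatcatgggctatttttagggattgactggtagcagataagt

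Each motif was searched on both strands of 32851 mouse promoter windows of the same length. The Fos window holds the core of the cAMP response element, TGACGT, at -66 to -61 and the TATA box TATAAA at -33 to -28 from the start site. The Dusp1 window holds the full cAMP response element TGACGTCA, the site CREB is known to bind, at -143 to -136, and a separate core at -191 to -186; the letters of the core lie within those of the full element. The full element occurs in 1.55% of all windows, the core in 6.47% and TATAAA in 12.4%. The Junb and Jun windows hold CCAAT, at -36 to -32 and at -65 to -61, as do 33.8% of all windows. The 4 windows hold no CArG box, the SRF site, which occurs in 1.47% of all windows. They hold no match to TGANTCA, the only form of the AP-1 site searched, which occurs in 6.75%. Longer variants of the AP-1 site were not searched, so a window may still hold one. The serum response element for which Fos is known lies farther upstream than these windows reach. Windows of 7 of the 10 members were searched, without Fosl1, Ier2 and Egr1. The window of Egr1, on chromosome 18, is not reported here. Of the 5 windows of Egr2, 4 hold a CArG box, but 3 of these overlap and share 1 match, so the boxes number 2.

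The libraries held 15879056 to 18361130 counts each. Replicates differed by more than sampling noise in all groups, with a chi-square per gene between 11.8 in the Usp7 knockdown and 79.3 in the libraries labelled Ssrp1 knockout. Usp7 RNA was 116.7 and 128.4 CPM in the knockdown, against 385.6 and 380.6 CPM in Usp7 controls (log2 change -1.64, edgeR adjusted p = 0.0012, and 0.13 without knockdown replicate 2). Ssrp1 RNA was 399.6 and 119.7 CPM in the libraries labelled knockout, against 423.2 and 460.0 CPM in Ssrp1 controls, so replicate 1 kept 90.5% of the control mean and replicate 2 kept 27.1%. A Cas9 cut can leave a transcript in place, so this RNA level does not settle the label. Mitochondrial genes took 7.31% and 2.81% of counts in the libraries labelled knockout, against 0.732% and 0.776% in Ssrp1 controls. The share was 2.44% and 2.03% in the knockdown and 2.23% and 1.67% in Usp7 controls. The part of these differences in the results below was not tested. Stem cell markers were high in every library: Pou5f1, the central pluripotency factor, stood between 890.0 and 1568 CPM, Dppa5a between 848.5 and 3997 CPM, and the 12 markers of that list summed to at least 5783 CPM. The 18 fibroblast markers summed to 473.6 and 648.8 CPM in the libraries labelled knockout, 456.6 and 726.5 CPM in Ssrp1 controls, 1324 and 1234 CPM in the knockdown and 933.8 and 1626 CPM in Usp7 controls. Fn1 made up most of these sums, Col5a1 reached 17.8 CPM and Fap was at 0 in all libraries. With all libraries no marker of either list was called by edgeR or DESeq2 in either experiment. At an unadjusted edgeR p under 0.05 there were 0 stem cell and 1 fibroblast markers for Ssrp1, and 2 of each for Usp7. Over all genes tested the shares were 18.2% for Ssrp1 and 16.7% for Usp7.

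Without passing the test, the markers of both lists lay unevenly around 0. Of 18 fibroblast markers 10 passed the count filter for Ssrp1. Of these, 9 had a log2 change above 0, as had 8180 of all 15757 genes tested. Their median was 0.79, against 0.03 over all genes tested. A marker with low counts can pass the filter through the group where it is higher, and the part of this in the lean was not tested. For Usp7, 8 of 11 fibroblast markers were above 0, as were 7708 of all 15915 genes tested. Their median was 0.11, against -0.02 over all genes tested. The 2 fibroblast markers at an unadjusted edgeR p under 0.05 for Usp7, Thy1 and Pdgfrb, were both lower. Each had a log2 change of -0.84, with both knockdown libraries below Usp7 controls. Thy1, Pdgfra, Col1a1, Pdgfrb and Col6a1 are named after their values were seen. Pdgfra had 7.37 and 3.62 CPM in the libraries labelled knockout, against 1.31 and 1.53 CPM in Ssrp1 controls (log2 1.94, edgeR adjusted p = 0.11), and it was called with no filter, in the 8-library fit, with GC and length correction plus block, and without replicate 2 labelled knockout. Without replicate 1 labelled knockout the log2 changes of Col1a1, Pdgfrb and Col6a1 were 2.01, 1.40 and 3.89. These values rest on replicate 2, the library labelled knockout with low Egr1 and high Jun. Col6a1 was left out of the Ssrp1 test of all libraries for low counts. With 1 library left in a group, a gene can pass the count filter through that library alone. Of the 12 stem cell markers 8 had a log2 change below 0 in each experiment, with medians of -0.15 for Ssrp1 and -0.27 for Usp7. Over all genes tested, 7577 of 15757 for Ssrp1 and 8207 of 15915 for Usp7 were below 0. The knockdown lay wholly below Usp7 controls for 7 of these 12 markers, against 23.4% of all genes. The libraries labelled knockout lay wholly below Ssrp1 controls for 3 of the 12, against 22.7% of all genes. What part these marker values have in the values of the immediate early genes, Egr1 and Jun included, was not tested.

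**Figure D1:**
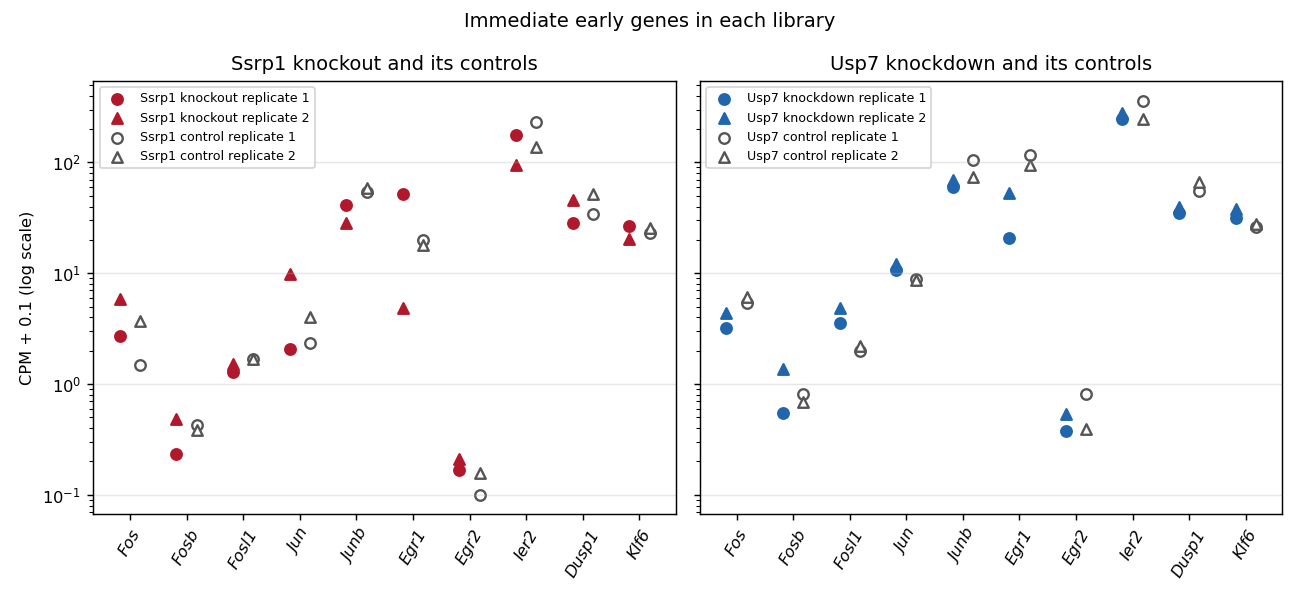
The 10 immediate early genes in each library, as CPM plus 0.1 on a log scale, with each perturbed pair of libraries to the left of its controls. In the Ssrp1 panel the Egr1 points labelled knockout lie at 51.9 and 4.77 CPM, above and below both controls, and in the Usp7 panel both knockdown points, 20.8 and 53.0 CPM, lie under the controls at 117.5 and 94.7 CPM.

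Levels within the list differed widely. Per kilobase of exon, Ier2 (chromosome 8, 84661331 to 84662852), which encodes a small nuclear protein that acts in transcription, was highest, with group means of 89.1 RPKM (CPM per kilobase of exon) in the libraries labelled Ssrp1 knockout, 121.1 in Ssrp1 controls, 171.0 in the Usp7 knockdown and 200.1 in Usp7 controls. Junb followed with group means between 15.2 and 38.9 RPKM, Dusp1 with 11.2 to 18.3 and Egr1 with 4.20 to 23.7. Klf6, a Krüppel-like zinc finger factor, ranged from 5.33 to 7.92 RPKM, and Fos, Jun and Fosl1 from 0.642 to 3.52 RPKM. Fosb and Egr2 were near silent. Fosb (chromosome 7, 19302696 to 19310051) had 2 and 7 counts in the libraries labelled Ssrp1 knockout, 5 and 5 in Ssrp1 controls, 8 and 23 in the Usp7 knockdown, and 12 and 10 in Usp7 controls. Egr2 (chromosome 10, 67535475 to 67542188), known for its role in hindbrain and Schwann cells, had 1 and 2 counts in the libraries labelled Ssrp1 knockout, 0 and 1 in Ssrp1 controls, 5 and 8 in the knockdown, and 12 and 5 in Usp7 controls. Egr2 was left out of every test for low counts, and Fosb out of the Ssrp1 test, so 8 members were tested for Ssrp1 and 9 for Usp7.

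After Usp7 knockdown, 1 of 9 tested members was called, and it fell; of all 15915 genes tested, 2.99% were called, 2.36% as higher and 0.628% as lower. Egr1 (chromosome 18, 34859823 to 34864984, mm10), a mediator of growth factor signals, had 376 and 965 counts in the knockdown, against 1994 and 1613 counts in Usp7 controls. That is 36.9 ± 22.7 CPM in the knockdown and 106.1 ± 16.1 CPM in Usp7 controls (SD, n = 2 each). Both knockdown libraries lie under both controls, but they differ from each other more than the controls do. The log2 change was -1.52 (SE 0.35), 2.87-fold lower, with an edgeR adjusted p of 0.042. In bulk RNA, fewer cells expressing a gene and less RNA per cell cannot be told apart. The call is close to the threshold: the adjusted p was 0.2 with DESeq2 and 0.23 with no filter on low counts. It was 0.19 without knockdown replicate 1 (log2 -1.0), 0.088 without control replicate 1, and 0.55 in a joint fit of all 8 libraries. The call held under 7 of 12 alternatives.

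Dusp1 (chromosome 17, 26505590 to 26562128) had 35.1 and 39.1 CPM in the knockdown, against 54.6 and 66.5 CPM in Usp7 controls, with no overlap and little spread within the knockdown pair. The log2 change was -0.71 (SE 0.20, edgeR adjusted p = 0.088), short of the threshold. DESeq2 called it (adjusted p = 0.042) though not Egr1. With edgeR it was called with a correction for GC content and length (adjusted p = 0.047) and with the replicate block (0.012). It was not called without knockdown replicate 1 (adjusted p = 0.63) or replicate 2 (0.81), with no filter on low counts (0.24) or in the 8-library fit (0.43). With a control library left out, the log2 change of Dusp1 was -0.84 (without replicate 1) and -0.57 (without replicate 2). Such a fit takes its spread from the knockdown pair alone, the group with the lowest chi-square per gene, and leaves out the spread between controls. Dusp1 is itself an immediate early gene whose product acts back on the kinases that induce it.

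Among the AP-1 genes, none passed the Usp7 test, and the libraries separated downwards for Fos and Junb and upwards for Jun and Fosl1. Fos (chromosome 12, 85473890 to 85477273) had 3.10 and 4.28 CPM in the knockdown, against 5.30 and 6.05 CPM in Usp7 controls (log2 -0.62, SE 0.33, edgeR adjusted p = 0.38). Junb (chromosome 8, 84974484 to 84978718), a Jun protein with weaker activation than Jun at many targets, had 60.3 and 69.9 CPM in the knockdown, against 104.7 and 74.2 CPM in Usp7 controls (log2 -0.46, SE 0.21, edgeR adjusted p = 0.31). For Junb the gap between the groups is narrow, since control replicate 2 lies close to the knockdown. The log2 change was -0.70 without that control and -0.19 without control replicate 1. Each of these fits takes its spread from the knockdown pair alone. Jun (chromosome 4, 95049034 to 95052222) had 10.5 and 11.9 CPM in the knockdown, against 8.78 and 8.63 CPM in Usp7 controls (log2 0.37, SE 0.25, edgeR adjusted p = 0.50). For these 3 genes the libraries separated and the change missed the threshold. Exons of Junb share 173 bases with Prdx2 and exons of Jun share 232 with Junos, in each case on the opposite strand, so a part of their counts cannot be assigned with certainty.

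Fosl1 (chromosome 19, 5447547 to 5455946), which encodes the Fos family protein Fra-1, had 62 and 87 counts in the knockdown, against 32 and 36 counts in Usp7 controls. At 3.44 and 4.78 CPM in the knockdown, against 1.89 and 2.11 CPM in Usp7 controls, it had the highest positive log2 change of the list, 1.04 (SE 0.38, edgeR adjusted p = 0.20). Of its 2033 exon bases, 1163 are shared with Ccdc85b on the opposite strand, and the strand setting of the counting is not given, so counts of Fosl1 cannot be fully assigned. Klf6 (chromosome 13, 5861482 to 5870394) had 31.5 and 38.0 CPM in the knockdown, against 25.9 and 27.5 CPM in Usp7 controls (log2 0.38, SE 0.20, edgeR adjusted p = 0.38). Ier2 overlapped between the groups, with 244.2 and 276.4 CPM in the knockdown, against 360.3 and 248.9 CPM in Usp7 controls (log2 -0.23). Fosb overlapped as well (log2 0.40, SE 0.63).

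Over the list, the knockdown libraries lay wholly below the controls for 4 tested members, Fos, Junb, Egr1 and Dusp1, and wholly above for 3, Fosl1, Jun and Klf6. Among all genes tested the shares were 23.4% below and 24.6% above, 48.0% together. The median log2 change was -0.23 over the 9 tested members and -0.02 over all genes tested. At an unadjusted p under 0.05 there were 3 members, Fosl1, Egr1 and Dusp1, against 16.7% of all genes.

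**Figure D2:**
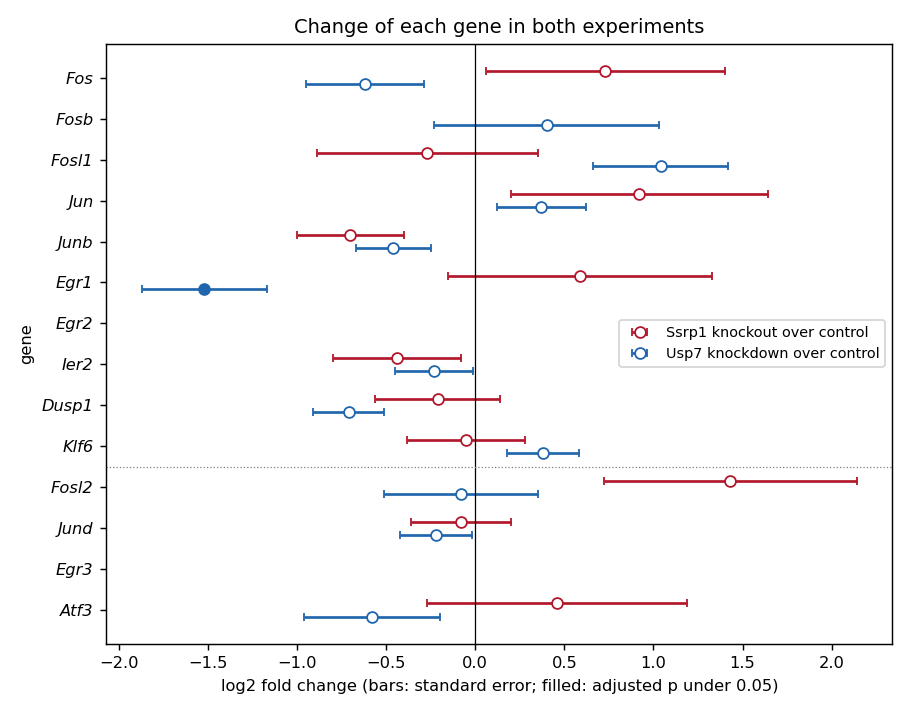
Log2 fold changes of the 10 members and, under the dotted line, 4 family relatives, with bars of 1 standard error; filled points have an edgeR adjusted p under 0.05. Egr1 in the Usp7 knockdown, at -1.52, is the only filled point, and genes without a point had too few counts for the test.

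With Ssrp1 targeted, 0 of 8 tested members were called by edgeR, against 3.71% of all 15757 genes tested (3.39% higher and 0.324% lower). At an unadjusted p under 0.05 there was 1 member, Junb, against 18.2% of all genes, and the counts called by DESeq2 and limma-voom were also 0. The median log2 change was -0.13 over the 8 members and 0.03 over all genes tested. The libraries did not overlap for 2 tested members, Fosl1 and Junb, both lower than Ssrp1 controls, against 50.0% of all genes in either direction (22.7% lower and 27.3% higher).

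Egr1 had 789 and 87 counts in the libraries labelled knockout, against 303 and 314 counts in Ssrp1 controls. Relative to the mean of the controls, replicate 1 held 275.6% and replicate 2 held 25.4% of the Egr1 RNA, a 10.9-fold difference between libraries of the same label. The pooled log2 change of 0.59 (SE 0.74, edgeR adjusted p = 0.74) therefore describes neither library, and it was -0.34 with limma-voom. Without replicate 1 labelled knockout the change was -2.04 (adjusted p = 0.0017), and without replicate 2 it was 1.46 (adjusted p = 0.0049). With 1 library left in an arm, the fit takes its spread from the other arm and assumes that the lone library varies likewise. These p-values, and all others with a library left out, controls included, therefore leave out the spread within that group. Between the libraries labelled knockout that spread is wide.

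Jun showed the opposite arrangement, with 1.97 and 9.71 CPM in the libraries labelled knockout, against 2.23 and 3.96 CPM in Ssrp1 controls. Replicate 2 held 4.92 times the level of replicate 1. The log2 change was 0.92 (SE 0.72, edgeR adjusted p = 0.56), 1.59 without replicate 1 labelled knockout (adjusted p = 0.031) and -0.66 without replicate 2 (adjusted p = 0.63). Fos overlapped between the groups, with 2.63 and 5.71 CPM in the libraries labelled knockout, against 1.38 and 3.63 CPM in Ssrp1 controls (log2 0.73, SE 0.67). In both groups replicate 2 held more Fos RNA than replicate 1.

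Junb had 41.4 and 28.4 CPM in the libraries labelled knockout, against 54.5 and 58.6 CPM in Ssrp1 controls. Both libraries labelled knockout lie under both controls, and the log2 change of -0.70 (SE 0.30) had an unadjusted p of 0.042 and an edgeR adjusted p of 0.25. Fosl1 was lower by a small margin, with 1.18 and 1.43 CPM in the libraries labelled knockout, against 1.58 and 1.59 CPM in Ssrp1 controls (log2 -0.27, SE 0.62). Ier2, Dusp1 and Klf6 overlapped between the groups, with log2 changes of -0.44, -0.21 and -0.05 and standard errors of 0.33 to 0.36. Those of Dusp1 and Klf6 changed sign when single libraries were left out. Ier2 had 176.0 and 95.2 CPM in the libraries labelled knockout, against 231.6 and 136.9 CPM in Ssrp1 controls. Klf6 had 26.4 and 20.4 CPM in the libraries labelled knockout, against 22.8 and 25.5 CPM in Ssrp1 controls; with the GC and length correction its log2 change was -0.62 (SE 0.28, edgeR adjusted p = 0.29). Dusp1 had 28.2 and 45.9 CPM in the libraries labelled knockout, against 33.9 and 51.7 CPM in Ssrp1 controls, so its replicates differ more than the groups do.

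**Figure D3:**
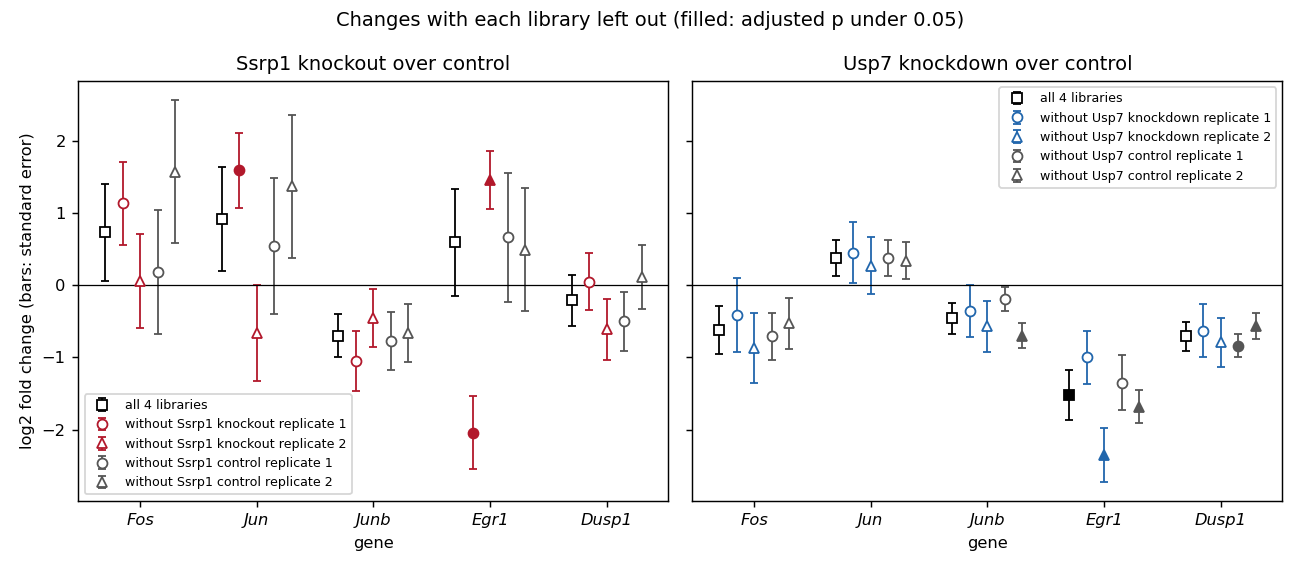
Log2 fold changes of 5 members with all 4 libraries of an experiment (black squares) and with each library left out in turn, with bars of 1 standard error and filled symbols at an edgeR adjusted p under 0.05; with 1 library left in an arm the p takes its spread from the other arm. For Egr1 in the Ssrp1 panel the value is -2.04 without replicate 1 labelled knockout and 1.46 without replicate 2, whereas in the Usp7 panel it stays between -2.35 and -1.0.

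Several of 12 genes that report ERK activity differed between the libraries labelled Ssrp1 knockout in the same sense as Egr1. So did the growth gene Myc. These 12 are called feedback genes here, although Etv4 and Etv5 encode transcription factors. The libraries labelled Ssrp1 knockout had the widest replicate spread of the 4 groups (chi-square per gene 79.3). How many of all genes differed between them in the same sense was not counted. The summed level of the 12 feedback genes was 1217 and 583.0 CPM in the libraries labelled knockout, against 1122 and 1073 CPM in Ssrp1 controls. Spry4, an inhibitor of receptor tyrosine kinase signalling, had 210.1 and 23.4 CPM in the libraries labelled knockout, against 221.5 and 191.2 CPM in Ssrp1 controls. Dusp6, an ERK phosphatase, Spry2 and Myc are named here after their values were seen: in replicate 2 they stood at 34.9%, 42.1% and 19.6% of the control mean, and in replicate 1 at 172.2%, 159.6% and 139.5%. The list was not uniform. Phlda1 and Dusp4 stood above the control mean in replicate 2 as well, at 236.8% and 144.8%. Spry1 (79.9% and 74.9%) and Il17rd (69.2% and 55.9%) differed little between replicates 1 and 2. These genes too are named after their values were seen. None of the 12 feedback genes was called with all libraries, nor was Myc. Without replicate 1 labelled knockout, the log2 changes were -3.20 for Spry4, -1.58 for Dusp6, -1.31 for Spry2 and -2.41 for Myc. Without replicate 2 the log2 changes of these 4 genes were 0.02, 0.78, 0.67 and 0.48, and that of Phlda1 was 1.94. Each of these fits rests on 1 library labelled knockout and takes its spread from the control pair alone. How many of all genes moved as far in these fits is not set beside them. Etv5, an ERK-induced transcription factor, had 415.7 and 272.1 CPM in the libraries labelled knockout, against 429.0 and 396.1 CPM in Ssrp1 controls. In the Usp7 experiment the feedback genes summed to 1400 and 1615 CPM in the knockdown, against 1542 and 1504 CPM in Usp7 controls. Of these 12 genes, 0 were called by edgeR or DESeq2. At an unadjusted edgeR p under 0.05 there were 2, against 16.7% of all genes. The part of ERK activity in the Egr1 values was not tested.

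**Figure D4:**
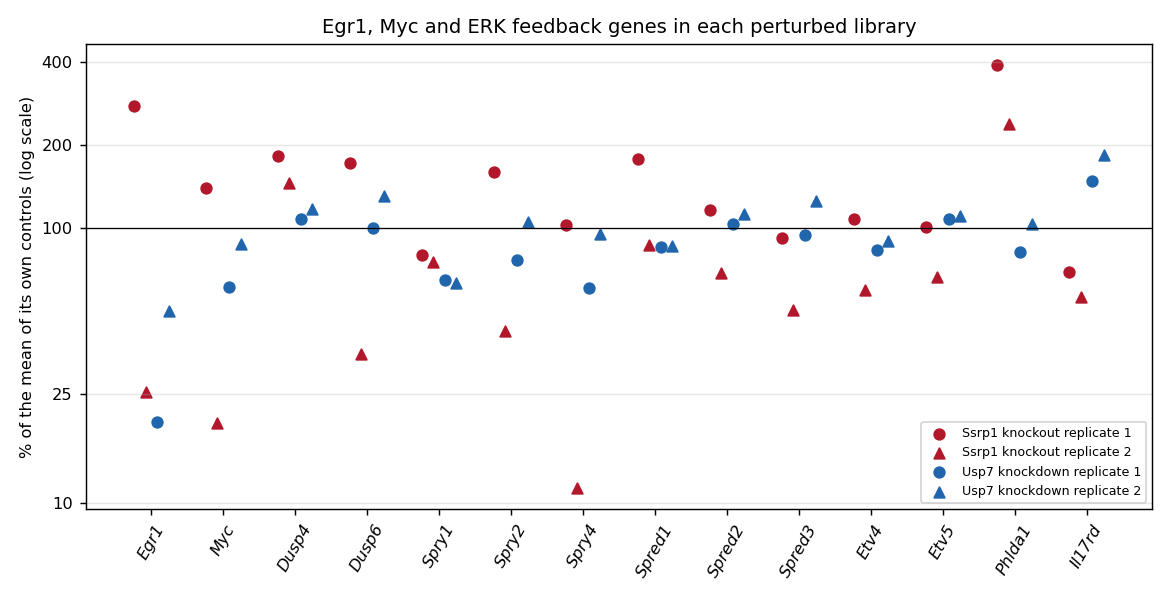
Egr1, Myc and the 12 ERK feedback genes in each library labelled knockout or knockdown, as a percentage of the mean of its own controls on a log scale. In replicate 2 labelled Ssrp1 knockout Egr1 lies at 25.4%, Myc at 19.6% and Spry4 at 11.4%, and replicate 1 lies at 275.6%, 139.5% and 101.8% for the same genes.

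Whether a member's change differed between the experiments was tested as the Ssrp1 change minus the Usp7 change in a joint fit of the 8 libraries. Of 9 tested members 0 were called by edgeR, none reached an unadjusted p under 0.05 and DESeq2 also called 0; of all 17052 genes, 1.00% were called (0.610% above and 0.393% below 0) and 15.1% reached that unadjusted p. Egr1 had the widest difference, 2.06 (SE 1.06, edgeR adjusted p = 0.40), which was 2.91 without replicate 2 labelled knockout (adjusted p = 0.0074) and -0.52 without replicate 1. Fos differed by 1.31 (SE 0.74, edgeR adjusted p = 0.45) and Fosl1 by -1.36 (SE 0.65, edgeR adjusted p = 0.35). For Junb the difference was -0.28 (SE 0.36), with log2 changes of -0.70 in the libraries labelled knockout and -0.46 in the knockdown. Klf6 differed by -0.48 (SE 0.34), and by -0.99 (SE 0.29, edgeR adjusted p = 0.14) with the GC and length correction.

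Levels across all 4 groups were set on a common scale over the 8 libraries, for description only, since group and experiment cannot be told apart between the control groups. Usp7 controls held the highest Egr1 level, 101.2 CPM on that scale, followed by the Usp7 knockdown at 35.2, the libraries labelled Ssrp1 knockout at 29.2 and the Ssrp1 controls at 20.1 CPM. The first of these stands apart from the next by more than their spread, and the remaining 3 groups overlap in neighbouring pairs. Usp7 controls were 5.03-fold above Ssrp1 controls for Egr1, 2.53-fold for Jun and 2.05-fold for Fos. In all, Usp7 controls lay above Ssrp1 controls without overlap for 7 of 10 members, and the other 3, Ier2, Dusp1 and Klf6, overlapped. Among the 17052 genes that passed the count filter 29.6% lay above and 27.2% below. Egr2, counted in the 7, failed that filter and is not among those genes. Fosl1, also in the 7, was only 1.13-fold above. The gap between these control groups in Egr1 is wider than the 2.87-fold change measured in the knockdown.

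On the same scale Fos was ordered Usp7 controls (5.40 CPM), libraries labelled Ssrp1 knockout (4.30), Usp7 knockdown (3.52) and Ssrp1 controls (2.64), with every neighbouring pair overlapping. Jun was highest in the Usp7 knockdown (10.7 CPM), above Usp7 controls (8.29) without overlap, and the libraries labelled Ssrp1 knockout (6.02) overlapped both with these controls and with Ssrp1 controls (3.28), which came last. Junb ran from Usp7 controls (85.4 CPM) through the Usp7 knockdown (62.0) and Ssrp1 controls (60.3), which overlapped, to the libraries labelled Ssrp1 knockout (36.0 CPM). Dusp1 groups overlapped in every neighbouring pair, between 57.6 CPM in Usp7 controls and 35.3 CPM in the Usp7 knockdown, and so did Ier2 groups, between 290.7 CPM in Usp7 controls and 139.8 CPM in the libraries labelled Ssrp1 knockout. Fosl1 was the 1 member separated at each step, with 3.91 CPM in the Usp7 knockdown, 1.90 in Usp7 controls, 1.69 in Ssrp1 controls and 1.35 CPM in the libraries labelled Ssrp1 knockout. Its counts are low and the steps narrow: the lower Usp7 control stood at 1.81 CPM and the higher Ssrp1 control at 1.72 CPM. A part of its counts cannot be assigned because of the overlap with Ccdc85b. The share of all genes separated at each step was not counted. For Klf6 the Usp7 knockdown (33.1 CPM) stood above the other groups, which overlapped between 24.1 and 25.8 CPM.

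The nearest relatives outside the list were called in neither experiment. Jund, the Jun family member with steady expression in many cells, had 43.4 and 43.7 CPM in the libraries labelled Ssrp1 knockout, against 45.4 and 46.7 CPM in Ssrp1 controls, and 48.6 and 59.5 CPM in the Usp7 knockdown, against 68.0 and 57.8 CPM in Usp7 controls. Its log2 changes were -0.08 (SE 0.28, 0.23 after the GC and length correction) and -0.22 (SE 0.20). Fosl2, which encodes Fra-2, had 36 and 33 counts in the libraries labelled Ssrp1 knockout, against 6 and 20 counts in Ssrp1 controls (log2 1.43, SE 0.71, edgeR adjusted p = 0.32). Atf3, a stress-induced partner of Jun, had log2 changes of 0.46 (SE 0.73) for Ssrp1 and -0.58 (SE 0.38) for Usp7. Egr3 had at most 11 counts in any library and was not tested.

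A longer list held 36 other immediate early genes, of which 33 were tested in each experiment. In the libraries labelled Ssrp1 knockout 2 were called, both higher, against 3.39% of all genes higher. The log2 change was above 0 for 20 and below 0 for 13 of them, with a median of 0.16, against 0.03 over all genes tested. In the Usp7 knockdown 4 were called higher and 1 lower, against 2.36% and 0.628% of all genes. There 8 had a log2 change above 0 and 25 below, with a median of -0.15, against -0.02 over all genes tested. Ccn2 and Ccn1, which encode secreted matrix proteins and are known targets of SRF and YAP, were called in both experiments. Ccn2 had 26.1 and 39.5 CPM in the libraries labelled knockout, against 5.97 and 7.19 CPM in Ssrp1 controls (log2 2.31, SE 0.38, edgeR adjusted p = 0.014), and 47.0 and 69.3 CPM in the Usp7 knockdown, against 27.5 and 23.4 CPM in Usp7 controls (log2 1.19, SE 0.23, adjusted p = 0.020). Ccn1 had log2 changes of 1.99 (SE 0.39, edgeR adjusted p = 0.024) and 1.68 (SE 0.23, adjusted p = 0.0033).

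Plk2 and Btg2, which are also p53 targets and restrain proliferation, were called in the Usp7 knockdown. Plk2 had 114.1 and 141.6 CPM in the knockdown, against 33.9 and 38.0 CPM in Usp7 controls (log2 1.83, SE 0.20, edgeR adjusted p = 0.00085). Btg2 had 117.3 and 127.3 CPM in the knockdown, against 37.1 and 40.0 CPM in Usp7 controls (log2 1.67, SE 0.19, edgeR adjusted p = 0.00095). Maff, a small Maf protein named after its values were seen, fell to 9.42 and 11.0 CPM in the knockdown, against 20.4 and 24.8 CPM in Usp7 controls (log2 -1.14, SE 0.23, edgeR adjusted p = 0.027). These Usp7 calls rest on few libraries: without knockdown replicate 2, when 42 genes were called in all, none of the 5 was (adjusted p of 0.065 for Plk2, 0.073 for Btg2, 0.15 for Ccn1, 0.4 for Maff and 0.6 for Ccn2), and Maff was also lost without knockdown replicate 1 (0.25). In the joint fit of 8 libraries Plk2, Btg2 and Ccn2 were not called (adjusted p = 0.16, 0.15 and 0.13). In the Ssrp1 experiment Ccn2 and Ccn1 were lost without control replicate 1 (adjusted p = 0.16 and 0.25), when 20 genes were called, and Ccn1 without control replicate 2 (0.097).

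Upstream of the members, 0 of 29 genes of the ERK pathway and of SRF and CREB regulation were called by edgeR in either experiment. Their median log2 changes were 0.07 for Ssrp1 and -0.01 for Usp7. At an unadjusted edgeR p under 0.05 there were 3 and 4 of them, against 18.2% and 16.7% of all genes. DESeq2 called 0 for Ssrp1 and 1 for Usp7 (Mapk3, which encodes ERK1 and is named after its values were seen). Over all genes edgeR called 2.99% for Usp7, and the DESeq2 share is not set beside it. Fgf4 had 180.7 and 329.6 CPM in the libraries labelled Ssrp1 knockout, against 288.2 and 233.4 CPM in Ssrp1 controls, and 172.0 and 160.7 CPM in the Usp7 knockdown, against 226.1 and 204.8 CPM in Usp7 controls. Of the 13 AP-1 partners none was called by edgeR or DESeq2, with 9 tested for Ssrp1 and 10 for Usp7. The most abundant partner, Mafg, had 76.9 and 55.6 CPM in the libraries labelled Ssrp1 knockout, against 94.4 and 90.2 CPM in Ssrp1 controls, and 154.6 and 179.4 CPM in the knockdown, against 124.2 and 114.5 CPM in Usp7 controls. Nfe2l2 came next, between 72.4 and 112.0 CPM.

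The members did not vary as a single block across libraries. Over the 8 libraries, with log2 CPM centred within each experiment, the correlation of single members with the mean of the 8 members tested in both experiments ran from -0.08 for Jun to 0.63 for Junb. Among 10831 other genes with a mean of at least 5 CPM, 5730480H06Rik, Eif4enif1 and Zyx had the highest correlation with that mean, 0.91 each, followed by Ankrd13b and Samd4b at 0.90, and the median was 0.02. Zyx, which encodes the focal adhesion protein zyxin, had 9.67 and 8.51 CPM in the libraries labelled Ssrp1 knockout, against 9.45 and 11.1 CPM in Ssrp1 controls, and 10.3 and 21.3 CPM in the knockdown, against 16.3 and 16.7 CPM in Usp7 controls. These values describe 8 libraries that share 2 count tables, and such a selection from many genes always finds high values.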

How the data were processed

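Per the file headers and values, the authors deposited raw counts of reads per gene, in 1 table per experiment with 4 libraries each. Per the submitters' processing notes, cutadapt, HISAT2 and featureCounts were used with mm10; no version, annotation, strand setting or rule for multi-mapping reads is stated there. Libraries were made from total RNA with an mRNA kit, per the labels' protocols. Groups come from the sample titles. Replicates may share a culture, since no label says otherwise; a p-value then reflects spread that may be technical.

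Symbols, coordinates and exon lengths come from GENCODE for GRCm38 (mm10), with 67 of 54232 identifiers unmatched; the 92 spike-in rows were all 0 and were left out. Each experiment was fitted on its own 4 libraries with edgeR 4.0.16 (R 4.3.3): filterByExpr (minimum count 10, minimum total 15), TMM factors, the quasi-likelihood F test and Benjamini-Hochberg adjustment over all genes tested, called under 0.05. CPM use TMM factors within an experiment unless a common scale is named; RPKM divide CPM by exon length. Standard errors derive from the F statistic. Alternatives used DESeq2 1.42.0, limma-voom (limma 3.58.1), other scaling, no filter, a replicate block, GC and length offsets, each library left out, and 1 fit of all 8 libraries. The edgeR, DESeq2 and limma steps were tested on simulated data. Promoter windows are those of RefSeq for GRCm38.p6.

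The members and gene lists were chosen with earlier results of these data known. Besides members, the text names Ssrp1, Usp7, 4 relatives, up to 4 called genes of each other list, the 2 most abundant genes of a list with none called, and the 5 genes most alike in pattern. A gene that this rule names is not reported here.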

Additional observations from a re-analysis of the deposited data

Results flagged for a closer look

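Fosl1 is listed because its libraries moved in opposite directions in the experiments. Both libraries labelled Ssrp1 knockout lay below both of their controls, and both Usp7 knockdown libraries lay above theirs. The tested difference, Ssrp1 change minus Usp7 change, was -1.36 on the log2 scale (SE 0.65, edgeR adjusted p = 0.35), so it did not pass the test. It ranged from -1.60 to -1.14 over 15 alternatives, with adjusted p from 0.22 to 0.76. Fosl1 had 18 to 87 counts per library.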

How the results depend on the processing

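The number of called members was 0 for Ssrp1 in the main analysis and 0 to 2 with a library left out. For Usp7 it was 1, and 0 with no filter and in the 8-library fit, 2 with the replicate block, 2 with the GC and length correction, 3 with both, and 0 to 4 with a library left out. For the difference it was 0, 1 with no filter, and 0 to 1 with a library left out. Over all genes, Ssrp1 calls numbered 585 (91.3% higher), but 1109 with DESeq2, 1497 with no filter, 988 with the replicate block, 284 with the GC and length correction, 1223 with both (62.1% higher), 1314 in the 8-library fit, and 20 to 1884 with a library left out. Usp7 calls numbered 476 (79.0% higher), but 100 with no filter (95% higher), 1471 with the replicate block (65.5%), 836 with the GC and length correction (68.1%), 1848 with both (57.0%), 78 in the 8-library fit, and 42 to 3770 with a library left out. Calls on the difference numbered 171, but 672 with DESeq2, 111 with limma-voom, 945 with no filter, 525 with the replicate block, 324 with block and GC and length correction, and 1 to 1109 with a library left out. Replicate numbers were taken as names only: deviations of same-numbered libraries correlated at 0.17 and 0.18 with 2 pairs per experiment.

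Changes of sign concerned values short of the threshold in the main analysis. For Ssrp1, Egr1 was -0.34 with limma-voom and -0.2 with the replicate block, and Jund was 0.23 with the GC and length correction and 0.22 with the block added. The other changes of sign came with 1 library left out. In the Ssrp1 comparison the log2 change then ranged from -2.04 to 1.46 for Egr1, -0.66 to 1.59 for Jun, -0.61 to 0.11 for Dusp1, -0.3 to 0.12 for Klf6, -0.41 to 1.39 for Atf3 and -0.27 to 0.07 for Usp7. In the Usp7 comparison it ranged from -0.48 to 0.07 for Ier2, -0.54 to 0.96 for Fosb and -0.43 to 0.39 for Fosl2. The difference ranged from -0.52 to 2.91 for Egr1, -1.09 to 1.21 for Jun, -0.8 to 0.19 for Ier2 and -1.64 to 0.24 for Fosb. The cause was not tested. Egr1 kept its direction in the Usp7 knockdown under all 12 alternatives (-2.35 to -1.0) and its call under 7. Low counts limit Fos, Fosb, Fosl1, Jun and Egr2.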

Other observations

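Heat shock genes, which respond to handling and protein stress, were measured beside the immediate early genes. In the Usp7 knockdown 2 of 12 were called, both higher, against 2.36% of all genes called higher. Hspa1a had 16.2 and 28.8 CPM in the knockdown, against 6.60 and 8.16 CPM in Usp7 controls (log2 1.61, SE 0.30, edgeR adjusted p = 0.018). Hspa1b had 37.8 and 80.5 CPM in the knockdown, against 22.1 and 22.0 CPM in Usp7 controls (log2 1.42, SE 0.30, edgeR adjusted p = 0.033). These neighbouring genes are near-identical copies, so their counts are uncertain between them, and neither was called without knockdown replicate 2 (adjusted p = 0.52 and 0.76), in the joint fit of 8 libraries (0.52 and 0.47) or with no filter on low counts (0.12 and 0.2). In the libraries labelled Ssrp1 knockout 0 of 12 were called by edgeR and 2 by DESeq2. Over all genes, too, DESeq2 called more than edgeR for Ssrp1, as counted above. At an unadjusted edgeR p under 0.05 there were 3 heat shock genes for Ssrp1, against 18.2% of all genes. There Hspa1a had 3.68 and 33.4 CPM, against 1.71 and 4.14 CPM in Ssrp1 controls, with the high value in the library that also held the most Jun.

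Factors that act on mRNAs with AU-rich elements, the class to which Fos mRNA belongs, were not called by edgeR in either experiment (0 of 12 each). At an unadjusted edgeR p under 0.05 there were 3 for Ssrp1 and 0 for Usp7, against 18.2% and 16.7% of all genes. DESeq2 called 1 for Ssrp1, Cnot7, named after its values were seen. DESeq2 called more of all genes for Ssrp1 than edgeR did, as counted above. Cnot1, the scaffold of the CCR4-NOT deadenylase, had 491.7 and 597.6 CPM in the libraries labelled Ssrp1 knockout, against 500.9 and 682.5 CPM in Ssrp1 controls, and 766.0 and 734.9 CPM in the Usp7 knockdown, against 600.9 and 876.4 CPM in Usp7 controls. Hnrnpd, which encodes AUF1, had 384.6 and 233.8 CPM in the libraries labelled Ssrp1 knockout, against 192.6 and 168.8 CPM in Ssrp1 controls, and 189.8 and 204.2 CPM in the knockdown, against 306.7 and 220.3 CPM in Usp7 controls.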
